A study of Schmidtea mediterranea with 40 samples.

Results

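The 6 libraries described here hold polyadenylated RNA of wounds of *activin-2* RNAi planarians, 3 labelled 6 hours post amputation (hpa) and 3 labelled 0 hpa, of the 40 libraries in the series. They were chosen by these labels alone and are compared over all contigs, the assembled transcripts that stand for genes here. All animals were *Schmidtea mediterranea* of strain CIW4, had been fed double-stranded RNA (dsRNA) 4 times within 14 days, and were cut 7 days after the fourth feeding, and the tissue was the fragment behind the pharynx. The *activin-2* animals received dsRNA of *activin-2*, and the control animals received dsRNA of *unc-22*, a gene of *C. elegans*. Besides the 6 libraries, values are given for control RNAi wounds labelled 6 and 0 hpa (3 libraries each), for wounds of both arms labelled 24 and 48 hpa (3 each), and for posterior-facing and anterior-facing wounds of both arms labelled 18 hpa (4 each). The labels give the wounds labelled 6 hpa as posterior-facing and give no orientation for those labelled 0 hpa, which the study's text describes as posterior-facing. The times on the labels may be exchanged, so groups are called here by their label (labelled 6, labelled 0), and no order in time is drawn from it. Each replicate pooled wounds, 5 by the labels, and nothing says whether replicates came from separate rounds of feeding, so p-values measure only the spread between these libraries.

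Planarians regrow any missing part from neoblasts, their dividing stem cells, and a cut switches on a shared set of wound-induced genes in muscle, epidermis and other cells within hours. Activins are secreted ligands of the TGF-β family that bind kinase receptors and act through Smad proteins. In planarian wounds, the Wnt inhibitor *notum* is expressed mainly where a wound faces forward, and *activin-2* is the ligand whose loss the study examined for its effect on this asymmetry.

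The libraries held 11971097 to 13349346 counted reads in labelled 6 and 10456997 to 11049164 in labelled 0, so that 1 read is 0.0749 to 0.0956 RPM (a count scaled to 1000000 counted reads). The RNAi target *activin-2* (dd_Smed_v6_3324_0_1) had 2.25, 2.92 and 3.09 RPM in labelled 6, against 3.26, 3.39 and 2.68 RPM in labelled 0. In control RNAi, where it was not targeted, it had 45.8, 40.2 and 42.6 RPM in labelled 6 and 30.3, 40.9 and 40.2 RPM in labelled 0. *activin-2* was thus low in all 6 *activin-2* RNAi libraries, and it differed little between labelled 6 and labelled 0 within them (log2 fold change -0.18, SE 0.23, edgeR adjusted p 0.774). The libraries labelled *activin-2* RNAi and 18 were not uniformly low. *activin-2* was at 3.63 to 70.1 RPM in the posterior-facing ones, against 33.4 to 44.3 RPM in control RNAi, and at 25.8 to 85.8 RPM in the anterior-facing ones, against 27.1 to 31.9 RPM in control RNAi. At label 18 the target itself was thus not low in at least part of them, and the reason was not tested. The arms did differ there in *notum* at posterior-facing wounds (4.35 to 5.18 against 0.957 to 2.04 RPM in control RNAi), while at anterior-facing wounds *notum* overlapped. The activin inhibitor *follistatin* was at 12.8 to 16.6 against 18.6 to 26.1 RPM (posterior-facing) and 12.9 to 17.0 against 20.1 to 22.8 RPM (anterior-facing). Replicate 3 of labelled 6 stood apart. Its log2 values correlated with the other labelled 6 libraries at 0.979 and 0.982, while those 2 correlated with each other at 0.992. With the 3 labelled 0 libraries replicate 3 correlated at 0.985, 0.984 and 0.983, each above its values with its own group. The reason was not tested, and it is left out in turn beside the results that rest on it. The 4 pharynx marker contigs summed to 7.52, 3.30 and 28.7 RPM in labelled 6 and to 6.70, 16.7 and 21.2 RPM in labelled 0, with the highest sum in that replicate 3. None of the 4 was at 0 in any library, and the part of pharynx tissue in the results was not tested.

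Fewer contigs were called higher than lower. Of 16071 contigs tested, 61 were called higher in labelled 6 than in labelled 0 (0.380%) and 120 were called lower (0.747%), at a Benjamini-Hochberg adjusted p under 0.05 in edgeR's quasi-likelihood test. At an unadjusted p under 0.05, the counts were 1163 higher and 1113 lower. The rises had log2 fold changes of 0.37 to 2.14 with a median of 0.54, and 8 of them were 1 or more. The falls were larger, at -3.39 to -0.41 with a median of -1.07, and 65 of them were 1 or more in size. Over all contigs tested the median log2 fold change was 0.01, and the 5th and 95th percentiles were -0.51 and 0.40. In all 181 called contigs the labelled 6 and labelled 0 libraries did not overlap. Among all contigs tested, every labelled 6 library lay above every labelled 0 library in 11.8% and below in 8.15%. Since the tissue is bulk, a fall in the cells of a type and a fall in RNA per cell cannot be told apart.

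The counts depended on single libraries. Without replicate 3 of labelled 6, 286 contigs were called higher and 906 lower, and these included all 61 and all 120. Without replicate 1 or 2 of labelled 6 there were 13 and 6 rises and 79 and 41 falls. Without replicate 1, 2 or 3 of labelled 0 there were 12, 13 and 10 rises and 80, 45 and 25 falls. Every one of the 181 kept its sign under all 12 alternatives, which says little, since without overlap a sign can hardly turn when a library is left out. Of the 181, 25 contigs, 5 rises and 20 falls, were called with any 1 library left out. The plot of RPM per library shows 10 of the called contigs.

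**Figure D1:**
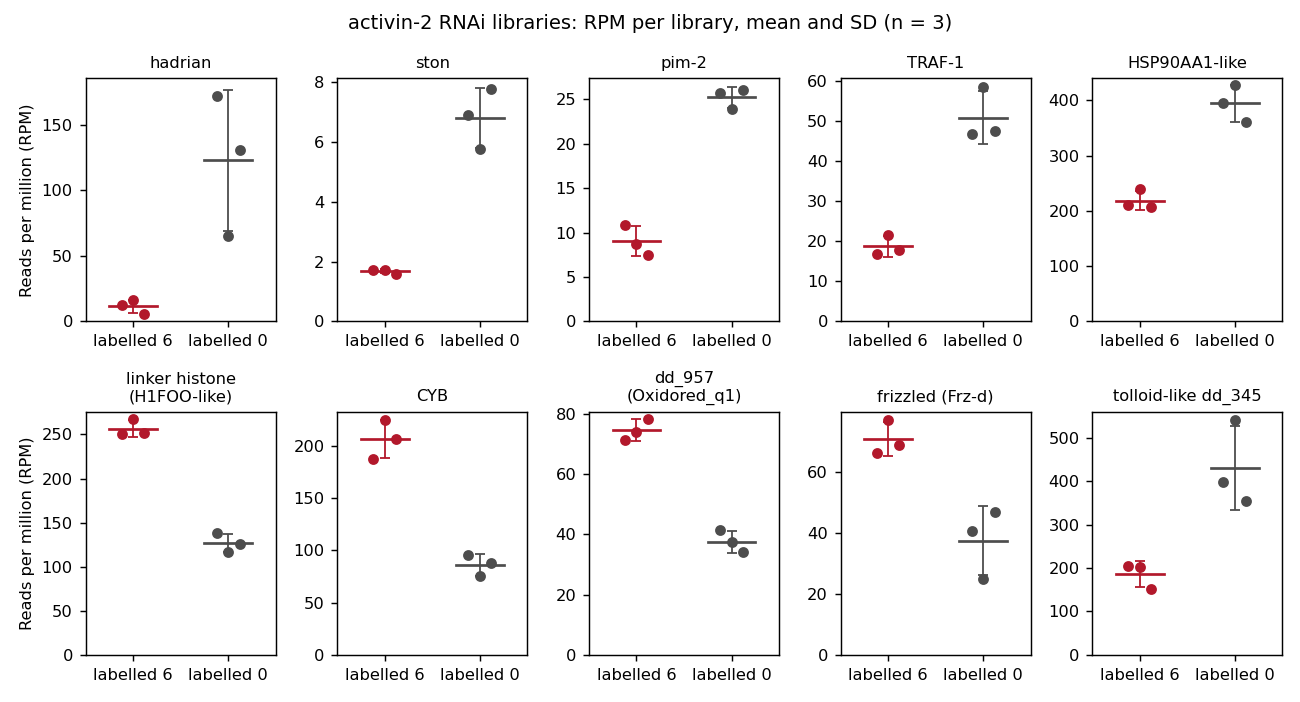
RPM of 10 contigs in the *activin-2* RNAi libraries labelled 6 (left in each panel) and labelled 0 (right), as points per library with the mean and SD (n = 3 each). The groups do not overlap in any panel, as in *hadrian*, with 5.93 to 16.0 RPM in labelled 6 against 65.2 to 172 RPM in labelled 0.

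The rises with the lowest adjusted p were of a linker histone, the class of protein that binds the DNA between nucleosomes and of mitochondrial *CYB*. The contig dd_601, matched to human H1FOO, had 250, 268 and 252 RPM in labelled 6, against 138, 117 and 126 RPM in labelled 0. Every labelled 6 library was above every labelled 0 library, and it rose by 1.02 on the log2 scale (SE 0.08, edgeR adjusted p 0.00155), a call that held with any 1 library left out. In control RNAi the same contig rose by 0.80 (adjusted p 0.000549). Other histones showed no call. Of 26 tested contigs on the histone list, 0 were called in edgeR and 5 were higher at an unadjusted p under 0.05, 23 had a positive log2 fold change, and 7 lay above without overlap, with a list median of 0.11.

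Several contigs of the mitochondrial genome rose together, and others were not called. These contigs encode subunits of the respiratory chain, and 4 of the 5 were chosen for description after their values were seen. *CYB* (dd_344), cytochrome b of complex III, had 188, 225 and 207 RPM in labelled 6, against 95.3, 75.1 and 88.0 RPM in labelled 0. It rose by 1.27 (SE 0.10, edgeR adjusted p 0.00155). The contig dd_957, with a domain of the NADH dehydrogenase subunits of complex I, had 71.3, 74.0 and 78.4 RPM in labelled 6, against 41.3, 37.4 and 34.0 RPM in labelled 0, and rose by 0.99 (SE 0.09, adjusted p 0.00209). A further contig with that domain, dd_292, had 143, 171 and 165 RPM in labelled 6 and 102, 87.8 and 82.5 RPM in labelled 0 and rose by 0.81 (SE 0.10, adjusted p 0.0101). All 3 calls held with any 1 library left out. *COI* (dd_753), the core subunit of cytochrome c oxidase, had 246, 304 and 396 RPM in labelled 6, against 317, 317 and 284 RPM in labelled 0, and these libraries overlapped (log2 fold change 0.04, SE 0.14, adjusted p 0.930). The contig dd_258, which spans several mitochondrial genes, had 1689, 1941 and 2087 RPM in labelled 6 and 2099, 1997 and 2032 RPM in labelled 0 (log2 fold change -0.10, adjusted p 0.662). Respiratory chain subunits encoded in the nucleus showed no call among 65 tested, and a median log2 fold change of -0.01, and 5 of them, 4 lower and 1 higher, had an unadjusted p under 0.05. In control RNAi none of these mitochondrial contigs was called, with log2 fold changes of 0.73 for *CYB* (adjusted p 0.160), 0.38 for dd_957 and 0.32 for dd_292.

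The remaining rises with a name were called in fewer of the fits with a library left out. The 12 largest annotated rises ran from 0.57 to 1.30, of which the linker histone and *CYB* were called with any 1 library left out and the other 10 in 1 to 3 of the 6 such fits. FOXRED1 (dd_10791), known in humans as an assembly factor of complex I, had 12.2, 18.1 and 12.8 RPM in labelled 6, against 5.61, 6.31 and 5.55 RPM in labelled 0, a rise of 1.30 (SE 0.18, edgeR adjusted p 0.0168). The frizzled receptor *Frz-d* (dd_11650), a Wnt receptor, had 66.1, 77.0 and 68.9 RPM in labelled 6 and 40.7, 24.8 and 46.7 RPM in labelled 0, a rise of 0.92 (SE 0.18, adjusted p 0.0481). DNAJC2 (dd_340), a ribosome-associated cochaperone, rose by 0.76. The kinase LRRK2 (dd_11669) rose by 0.80, SPATA18 (dd_6321), which acts in mitochondrial quality control in mammals, by 0.78, and FTH1 (dd_1033), the iron-storing heavy chain of ferritin, by 0.69. The anion exchanger SLC4A2 (dd_2778) rose by 0.66 and *FGFR4* (dd_11024), a receptor tyrosine kinase, by 0.60. Ornithine decarboxylase, which makes the first polyamine, rose on 2 of its 5 tested contigs, by 0.57 on dd_4916 and by 0.42 on dd_5493. The HMG-box factors *SoxP-1* (dd_7227) and *SoxB* (dd_13215) each rose by 0.54, as did a SKI-annotated contig (dd_10394), whose human relative represses Smad-dependent transcription.

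The most abundant rise had no annotation. The contig dd_Smed_v6_4_1_1 had 7625, 7750 and 5635 RPM in labelled 6, against 3401, 2123 and 2064 RPM in labelled 0, a rise of 1.48 (SE 0.21, edgeR adjusted p 0.0176). In control RNAi it had 3939, 2642 and 7279 RPM in labelled 6 and 6373, 5568 and 6325 RPM in labelled 0, which overlapped, with a log2 fold change of -0.40 (adjusted p 0.563). The other unannotated rises with the largest fold changes were dd_10584, by 2.14, and dd_17762, by 1.72, of which dd_10584 was called with any 1 library left out.

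The largest annotated falls were led by genes of the wound response, and the largest without annotation were dd_524, by 2.35, dd_4205, by 2.12, and dd_10928, by 2.11. *hadrian* (dd_3606), which planarians switch on at wounds, had 12.7, 16.0 and 5.93 RPM in labelled 6, against 172, 65.2 and 131 RPM in labelled 0, a fall of 3.39 on the log2 scale (SE 0.39, edgeR adjusted p 0.00738). *ston* (dd_14370), also a wound-induced gene, had 1.71, 1.72 and 1.59 RPM in labelled 6 and 6.88, 5.75 and 7.75 RPM in labelled 0, and fell by 2.01 (SE 0.20, adjusted p 0.00507). Both were called with any 1 library left out and both fell in control RNAi, by 2.50 (adjusted p 0.000549) and by 1.86 (adjusted p 0.00485). *pim-2* (dd_4435), a serine/threonine kinase gene, had 10.9, 8.76 and 7.52 RPM in labelled 6, against 25.7, 23.9 and 26.1 RPM in labelled 0, a fall of 1.47 (SE 0.15, adjusted p 0.00507). *TRAF-1* (dd_4392), of the adaptor family that links TNF receptors to kinase cascades, had 16.8, 21.6 and 17.7 RPM in labelled 6 and 46.7, 58.5 and 47.4 RPM in labelled 0, and fell by 1.44 (SE 0.13, adjusted p 0.00260). The *pim-2* and *TRAF-1* calls also held with any 1 library left out.

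Early growth response and TRAF3-like contigs were also among the falls. A pair of early growth response genes, zinc-finger factors switched on within minutes of many stimuli in animals, fell by 1.27 (dd_9273, edgeR adjusted p 0.0340) and 1.21 (dd_7731, adjusted p 0.0168), out of 8 tested. The family did not fall as a whole. Of the 8, 4 had a positive and 4 a negative log2 fold change, with a median of -0.06. Without overlap, 2 lay above and 2 below. Contig dd_9273 had 13.4, 12.2 and 8.94 RPM in labelled 6, against 19.9, 35.1 and 29.3 RPM in labelled 0. Contig dd_7731 had 5.82, 4.27 and 4.68 RPM in labelled 6, against 10.1, 11.9 and 12.2 RPM in labelled 0. A pair of short TRAF3-like contigs with a MATH domain also fell, dd_8127 by 1.02 and dd_3201 by 0.54. With *TRAF-1* they were the 3 calls, all lower, among 99 tested contigs with this domain. Among the 65 tested contigs of the TNF receptor-associated factor list, 1 was called lower and 0 higher, and without replicate 3 of labelled 6 the counts were 5 and 0.

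Among the falls were 5 contigs of the HSP90 and HSP70 chaperone cycle. These proteins fold others and are raised by heat and other stress in most animals. The HSP90AA1-like contig (dd_678) had 210, 239 and 207 RPM in labelled 6, against 395, 428 and 361 RPM in labelled 0, a fall of 0.85 (SE 0.10, edgeR adjusted p 0.00738) that held with any 1 library left out. The HSPA8-like *Hsp70* (dd_320) had 1395, 1362 and 1324 RPM in labelled 6, against 2126, 2294 and 2146 RPM in labelled 0, a fall of 0.68 (SE 0.09, adjusted p 0.0101) that was lost without replicate 2 of labelled 6 (adjusted p 0.0645). The HSP90 partners FKBP4 (dd_1921), STIP1 (dd_1986), which bridges HSP70 and HSP90, and AHSA1 (dd_2497), which activates the HSP90 ATPase, fell by 0.61, 0.55 and 0.54, and these were called in 2, 1 and 3 of the 6 fits with a library left out. Across the 110 tested contigs of the chaperone list, 5 fell and 1 rose, the median log2 fold change was -0.06, and 22.7% lay below without overlap. All 5 falls are also on the wound-induced list, and the rise was DNAJC2. In control RNAi, 2 of the list were called lower and 0 higher.

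A group of proteases, put together after the called contigs had been seen, also held several falls. Of 6 tested contigs with the leishmanolysin domain, a family of zinc metalloproteases, 4 fell, by 0.92 (dd_2320), 0.86 (dd_10609), 0.60 (dd_7495) and 0.48 (dd_5141). The most abundant of them, dd_2320, had 211, 202 and 192 RPM in labelled 6, against 428, 291 and 432 RPM in labelled 0, while dd_5141 was called in 1 of the 6 fits with a library left out. Over all contigs tested 0.380% were called higher and 0.747% lower. The lists by domain family, here and elsewhere, were added after values were seen, so a larger share of calls in them follows from that choice.

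Many other falls were of contigs with higher levels at posterior-facing than at anterior-facing wounds. After the falls had been seen, contigs were sorted by the control RNAi libraries labelled 18, which are not among the 6: a contig was set apart where each of the 4 libraries of one orientation lay above each of the other and its mean was at least 4-fold higher, with 0.1 RPM added. By this rule 143 of the 16071 tested contigs were higher at posterior-facing wounds (0.890%) and 29 were higher at anterior-facing wounds (0.180%). Of the 120 falls, 42 were in the posterior-facing set, which is 35.0% of the falls and 29.4% of the set, and 5 were in the anterior-facing set, among them *hadrian* and a Kunitz-domain inhibitor (dd_Smed_v6_2116_0_2). Of 22 tested contigs with a Kunitz domain, 2 were called lower and 0 higher. None of the 61 rises was in either set. Of all 143 contigs of the posterior-facing set, 141 had a negative log2 fold change and 104 lay below without overlap, with a median of -1.13. The 29 contigs of the anterior-facing set had a median of -1.22, with 5 called lower and 0 higher, so lower values were not particular to the posterior-facing set. The orientation of the labelled 0 wounds is not on their labels, and whether position along the body differed between the groups was not tested.

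The 17 named contigs among these 42 included proteases, lectins and collagen-like contigs. Contigs named *tolloid*-like, after a family of astacin proteases whose members cut BMP inhibitors and procollagens in other animals, gave 3 of them. An astacin domain is annotated on dd_345 and dd_961 but not on dd_3166. The most abundant, dd_345, had 205, 203 and 151 RPM in labelled 6, against 398, 540 and 355 RPM in labelled 0, a fall of 1.20 (SE 0.18, edgeR adjusted p 0.0196). The others were dd_961, with 99.8, 103 and 61.3 RPM in labelled 6 and 173, 226 and 180 RPM in labelled 0, and the low dd_3166, with 3.18, 4.94 and 2.59 RPM against 8.24, 8.86 and 8.70 RPM. In each of them the highest labelled 6 library was below the lowest labelled 0 library. Among the 12 tested contigs with an astacin domain, 2 were called lower and 0 higher, 7 lay below without overlap, and the median was -0.60.

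Lectin-like contigs, with a sugar-binding C-type lectin domain, gave 3 more. dd_3193 had 39.6, 61.8 and 70.4 RPM in labelled 6, against 114, 158 and 133 RPM in labelled 0, a fall of 1.24. dd_3266 and dd_9200 fell by 1.27 and 1.20, and of 19 tested contigs with this domain 3 were called lower and 0 higher. Contigs of extracellular matrix annotation were COL6A6-like dd_2803, with a von Willebrand domain as in collagen VI, which fell by 1.26, and dd_886, a Kunitz-domain contig matched to COL6A3, which fell by 1.11. These were the only calls among 80 tested contigs of the extracellular matrix list, whose median was 0.14 and of which 22 lay above without overlap and 9 below. The CAP-domain contig PI16 (dd_1141) fell by 1.43 and the membrane endopeptidase ECE1 (dd_2163) by 1.29. A pair of contigs matched to P4HB, a disulfide isomerase of the endoplasmic reticulum, fell by 0.88 (dd_3941) and 0.90 (dd_6303). The other named falls were of the tetraspanin TSPAN5 (-1.21), the mucin MUC5B (-1.06), the ATP-gated channel P2RX4 (-1.01), the transporter SLC47A2 (-0.89) and the vesicle cargo receptor TMED2 (-0.84). Of the 42, 5 carried a muscle annotation in the deposited table and 34 carried no cell type annotation.

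The 143 contigs of the posterior-facing set were sorted by the control libraries labelled 18, but among contigs that had passed the count filter on the 6 libraries. Their sum was 17778, 15006 and 9512 RPM in labelled 6, against 23616, 31335 and 25774 RPM in labelled 0, and the groups did not overlap. In control RNAi it was 31910, 10773 and 40268 RPM in labelled 6, against 36433, 33629 and 22925 RPM in labelled 0, so that replicate 2 of labelled 6 lay far below the rest. That library was also the lowest of its group for 42 of the 42 contigs that fell in *activin-2* RNAi. At label 18, the sum at posterior-facing wounds was 26395 to 33528 RPM in the libraries labelled *activin-2* RNAi and 44419 to 65077 RPM in control RNAi, and at anterior-facing wounds 1393 to 5608 RPM and 1815 to 3558 RPM. Replicate 3 of labelled 6 was the lowest of its group for 37 of the 42, whose median log2 fold change was -1.27 with it and -1.07 without it. The number of falls in the posterior-facing set was 42, 20 and 93 without replicate 1, 2 or 3 of labelled 6, and 41, 8 and 6 without replicate 1, 2 or 3 of labelled 0.

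**Figure D2:**
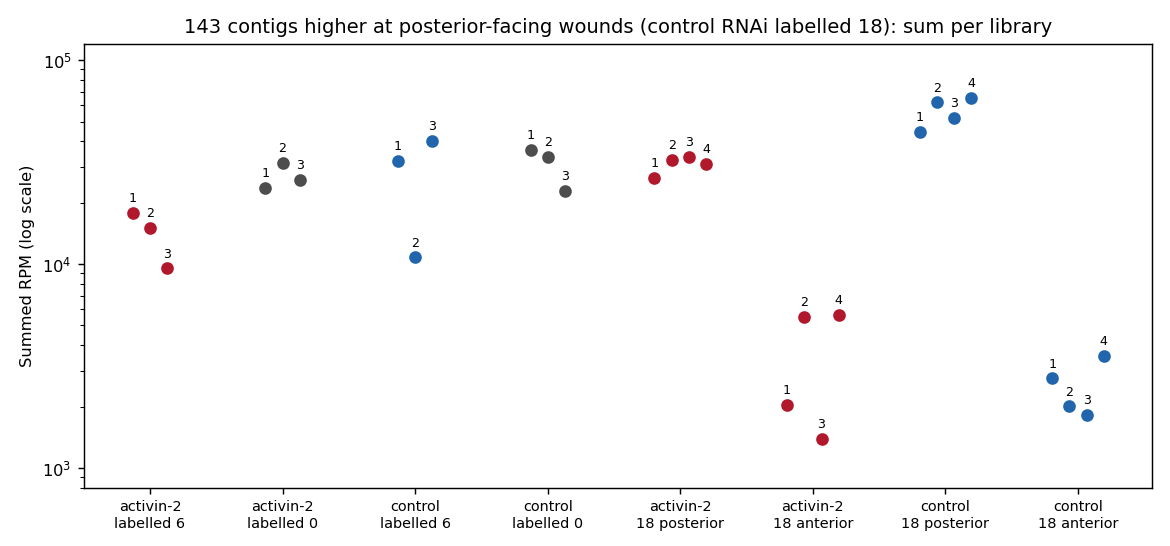
Summed RPM (log scale) per library of the 143 contigs that are higher at posterior-facing wounds of control RNAi labelled 18, a choice that used the control libraries labelled 18, with the replicate number above each point. The labelled 6 *activin-2* libraries (9512 to 17778 RPM) sit below the labelled 0 ones (23616 to 31335 RPM), and control RNAi labelled 6 replicate 2 (10773 RPM) sits below all other control libraries labelled 6 or 0.

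Most lists of genes read across the whole table gave few calls. Over all contigs tested, 0.380% were called higher and 0.747% lower. Of 125 tested wound-induced genes, a list taken from earlier planarian wound studies, 11 (8.80%) fell and 1 (0.800%), *Frz-d*, rose. Their median was -0.23, and 45 (36.0%) lay below without overlap while 9 (7.20%) lay above. The 11 falls were *hadrian*, *ston*, *TRAF-1*, the early growth response genes dd_9273 and dd_7731, the 5 chaperone contigs and a PHYHD1-like contig (dd_8029), related to a human dioxygenase. Without replicate 3 of labelled 6, 30 fell and 5 rose. There were 4 falls without replicate 2 of labelled 6, and 5 each without replicate 2 or 3 of labelled 0. In control RNAi 11 of 122 fell and 0 rose, with a median of -0.21. Homeobox, forkhead and SOX factors, which direct cell identity, had a positive log2 fold change in 103 of 133, with 41 (30.8%) above without overlap and 2 below, a median of 0.19, 2 rises (*SoxP-1* and *SoxB*) and 0 falls. In control RNAi the same list had 2 rises, 0 falls and a median of 0.19. Of 36 tested Wnt pathway genes 12 (33.3%) lay above and 1 below, with a median of 0.11 and *Frz-d* as the only call.

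The cell type lists gave few calls, beside 0.380% called higher and 0.747% lower over all contigs tested. Neural-annotated contigs had 2 rises and 1 fall among 264, a median of 0.12, and 62 (23.5%) above without overlap. The cholinergic marker *chat* had 77.2, 82.1 and 88.0 RPM in labelled 6, against 67.6, 67.2 and 66.6 RPM in labelled 0 on contig dd_6208, which did not overlap and was not called (log2 fold change 0.30, edgeR adjusted p 0.0782). On its other contig, dd_11968, it had 11.2, 13.6 and 12.8 RPM in labelled 6 and 10.5, 10.3 and 12.3 RPM in labelled 0, which overlapped (log2 fold change 0.19, adjusted p 0.566). Neoblast-annotated contigs had 1 rise and 3 falls among 367 and a median of 0.01, gut-annotated contigs 3 and 12 among 809 and a median of -0.02, and muscle-annotated contigs 8 and 9 among 805 and a median of 0.03. The neoblast gene *smedwi-1* (dd_659), a piwi protein gene, had 988, 1069 and 1036 RPM in labelled 6, against 916, 943 and 944 RPM in labelled 0, again without overlap and not called (log2 fold change 0.14, adjusted p 0.420). The summed muscle level was 69396, 70033 and 77675 RPM in labelled 6 and 83313, 96577 and 68582 RPM in labelled 0, and overlapped. *myoD* (dd_12634), a muscle transcription factor, had 22.6, 23.3 and 20.6 RPM in labelled 6 and 20.7, 18.6 and 17.7 RPM in labelled 0.

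In several housekeeping and structural lists no contig was called, where 0.380% of all contigs tested were called higher and 0.747% lower. These were the 36 proteasome contigs (median -0.14, 8 lower and 1 higher at an unadjusted p under 0.05), the 71 of the splicing machinery (0.04, 5 and 7), the 86 of DNA replication and the cell cycle (0.00, 3 and 2), the 57 piwi, tudor and DEAD-box genes (0.04, 4 and 3), the 122 of cilia and axonemes (0.07, 0 and 9) and the 52 of muscle contraction (0.06, 3 and 4). The 242 neuronal channels and transmitter receptors (0.06, 12 and 22), the 50 innexins (0.04, 1 and 6), the 36 lysosomal hydrolases (-0.02, 1 and 1) and the 11 intermediate filaments (0.08, 1 and 1) had no call either. With so small a share called over all contigs, no call in lists of this size says little. At an unadjusted p under 0.05, 1113 of all 16071 contigs tested were lower and 1163 higher. Of the proteasome contigs, 30.6% lay below without overlap and 5.56% above, against 8.15% and 11.8% of all contigs tested. Among cytosolic ribosomal proteins 1 of 103, RPL29 (dd_481), fell by 0.79. The 252 solute carriers had 3 rises and 3 falls, and the 166 retroelement and transposase contigs had 1 fall, the AHSA1 contig. Of 36 genes of TGF-β, BMP and activin signalling, the only call was the *tolloid* contig dd_345.

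**Figure D3:**
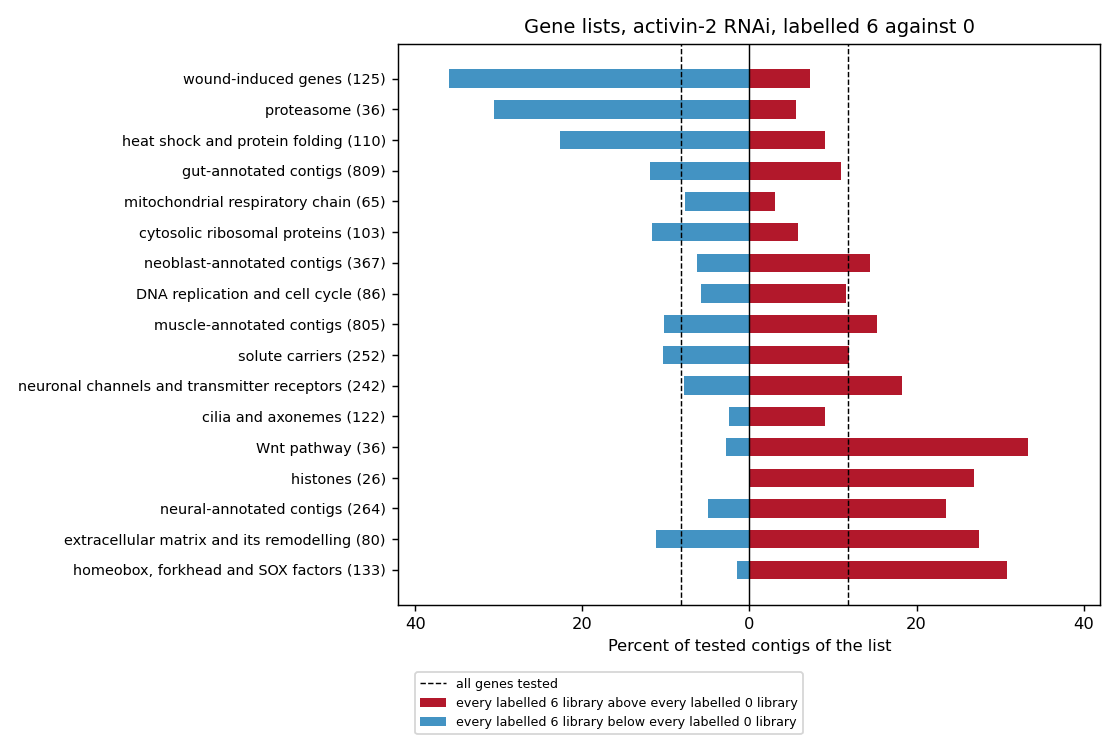
Percent of the tested contigs of each list for which every labelled 6 library lay above (right) or below (left) every labelled 0 library in *activin-2* RNAi, with the number tested in brackets. Dashed lines mark all contigs tested, 11.8% above and 8.15% below. Wound-induced genes reach 36.0% below, and homeobox, forkhead and SOX factors 30.8% above.

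Most genes that the study followed by name were not called. *notum* (dd_24180) had 3.49, 4.27 and 3.01 RPM in labelled 6, against 2.90, 3.11 and 4.30 RPM in labelled 0, and the libraries overlapped (log2 fold change 0.07, SE 0.24, edgeR adjusted p 0.923). *wnt1* (dd_28398), a posterior Wnt ligand, had 1.09, 0.674 and 0.752 RPM in labelled 6 and 0.543, 1.60 and 2.30 RPM in labelled 0 (-0.80, SE 0.48, adjusted p 0.495), and the SE leaves a wide range at this depth. The activin inhibitor *follistatin* (dd_9584) was at 14.3, 14.0 and 14.6 RPM in labelled 6 and at 13.8, 18.6 and 15.1 RPM in labelled 0 (-0.14, adjusted p 0.686). These 3 genes showed no separation of the groups. *inhibin-1* (dd_7607), *nlg-1* (dd_14068), *wntless* (dd_11629), *fos-1* (dd_2789) and *fascin-1* (dd_996) had log2 fold changes of -0.30, -0.14, 0.10, -0.16 and -0.41, with adjusted p of 0.174 or more. Of these, *inhibin-1*, *fos-1* and *fascin-1* lay lower in labelled 6 without overlap, while *nlg-1* and *wntless* overlapped. *runt-1* (dd_16222), a wound-induced transcription factor, had 1.24, 1.87 and 1.75 RPM in labelled 6, against 3.08, 17.6 and 2.49 RPM in labelled 0. It did not overlap, and replicate 2 of labelled 0 held most of the difference (-2.25, SE 0.71, adjusted p 0.182, and -0.77 without that library). For *foxD*, a single contig matched human FOXD3 but carries another planarian name and did not pass the filter on low counts.

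Control RNAi, whose 6 libraries are not shared with the *activin-2* comparison, gave 43 contigs higher (0.258%) and 94 lower (0.563%) in labelled 6 than in labelled 0 of 16688 tested. Of the 61 *activin-2* rises, 58 had a positive log2 fold change in control RNAi, with a median of 0.32, and 8 were called there too, which is 13.1% of the *activin-2* rises and 18.6% of the control rises. Of the 120 falls, 109 had a negative one, with a median of -0.44, and 38 were called in both, which is 31.7% and 40.4%. No contig was called in opposite directions. The 73 falls in neither orientation set had a median of -0.76 in *activin-2* RNAi and -0.61 in control RNAi, where 73 of 73 were negative and 37 were called. The 143 contigs of the posterior-facing set had a median of -1.13 in *activin-2* RNAi. Those of them also tested in control RNAi had a median of -0.25 there, with 115 negative and 22 positive. The anterior-facing set had medians of -1.22 and, for those tested in control RNAi, -0.86. The 42 contigs of the posterior-facing set that fell, which were chosen by their change in *activin-2* RNAi, had a median of -1.27 there. In control RNAi their median was -0.24, where 31 were negative and 11 positive. Of these 42, 0 were called in control RNAi in edgeR or DESeq2, with 0 at an unadjusted p under 0.05 in edgeR. Without the low control replicate 2 of labelled 6, their control median was 0.20, with 35 of 42 positive, 11 of them at an unadjusted p under 0.05, and 0 called. That library was the lowest of its group for all 42, so leaving it out raises these values by itself.

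**Figure D4:**
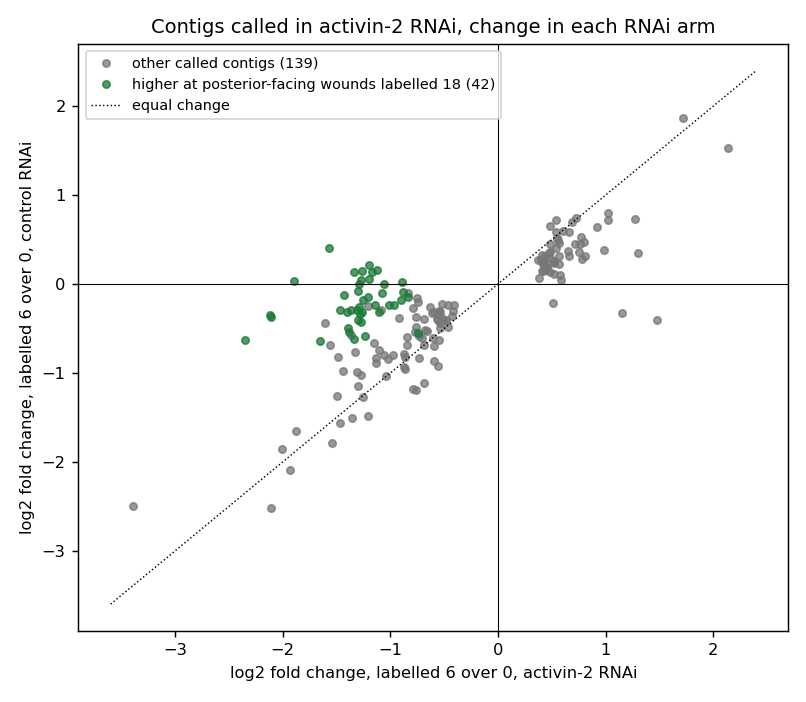
Log2 fold change of labelled 6 over labelled 0 in *activin-2* RNAi (x axis) and control RNAi (y axis) for the 181 called contigs, one point each, with the line of equal change dotted. Grey points are the 139 other called contigs, and green points are the 42 that are higher at posterior-facing wounds labelled 18, with a median of -1.27 on the *activin-2* axis, by which they were chosen, and of -0.24 on the control axis.

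The test of the difference itself, the interaction of RNAi and labelled time over the 12 libraries, called 0 of 17138 contigs (0%) in edgeR, with a lowest adjusted p of 0.925 and 879 contigs at an unadjusted p under 0.05. No contig was therefore shown to change differently between the arms in that fit. DESeq2 called 1, a CALML5-like calcium-binding contig (dd_299), with a difference of 0.70 (SE 0.13, adjusted p 0.00325). Of the 143 contigs of the posterior-facing set, 18 had an unadjusted interaction p under 0.05. Control replicate 2 of labelled 6 was the lowest of its group for all 42 contigs of this set that fell. Leaving it out raises their control change, while the low replicate 3 of *activin-2* RNAi labelled 6 stays in, so this fit cannot decide whether the arms differ. Without it, edgeR called 6 contigs, all lower and all among the 42, whose fall in *activin-2* RNAi is part of this difference. Their adjusted p was 0.0276 to 0.0431 and their differences were -2.50 to -1.43. The largest was the unannotated dd_5122, and another was dd_1129, which the deposited table places in wound-response muscle and which had 72.0, 81.5 and 53.4 RPM in labelled 6, against 170, 182 and 193 RPM in labelled 0.

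Across the other labels, the called genes followed several patterns, among posterior-facing groups unless stated. In *activin-2* RNAi the median of *hadrian* was 131 RPM in labelled 0, 12.7 in labelled 6, 1.84 in posterior-facing labelled 18, 7.07 in labelled 24 and 21.7 in labelled 48, so that labelled 0 was above all others, and in control RNAi labelled 0 was also the highest of these groups, at 37.6 RPM. The median of *TRAF-1* was 47.4, 17.7, 53.7, 40.9 and 124 RPM in labelled 0, 6, 18, 24 and 48, with labelled 6 lowest. The HSP90AA1-like contig had 395, 210, 687, 229 and 512 RPM in the same order, and labelled 6 and labelled 24, whose libraries overlapped, lay below the rest. In control RNAi it had 414, 270, 703, 214 and 660 RPM, with the same 2 labels lowest. The linker histone contig had 126, 252, 114, 141 and 180 RPM in *activin-2* RNAi and 144, 255, 127, 115 and 130 RPM in control RNAi, and labelled 6 lay above every other posterior-facing group of its arm without overlap.

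*CYB* had 88.0, 207, 102, 55.9 and 73.7 RPM in *activin-2* RNAi in the order of labels 0, 6, 18, 24 and 48, with labelled 6 above the other groups there too. In control RNAi it had 123, 203, 88.5, 50.3 and 54.4 RPM. The *tolloid* contig dd_345 had 398, 203, 549, 377 and 256 RPM in *activin-2* RNAi and 455, 646, 1093, 1076 and 1048 RPM in control RNAi, so labelled 6 had the lowest median of the posterior-facing groups of the *activin-2* arm. At anterior-facing wounds labelled 18 it had 34.0 RPM in the libraries labelled *activin-2* RNAi, where *activin-2* itself was not low, and 4.22 RPM in control RNAi. These levels are a description across labels and were not tested.

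**Figure D5:**
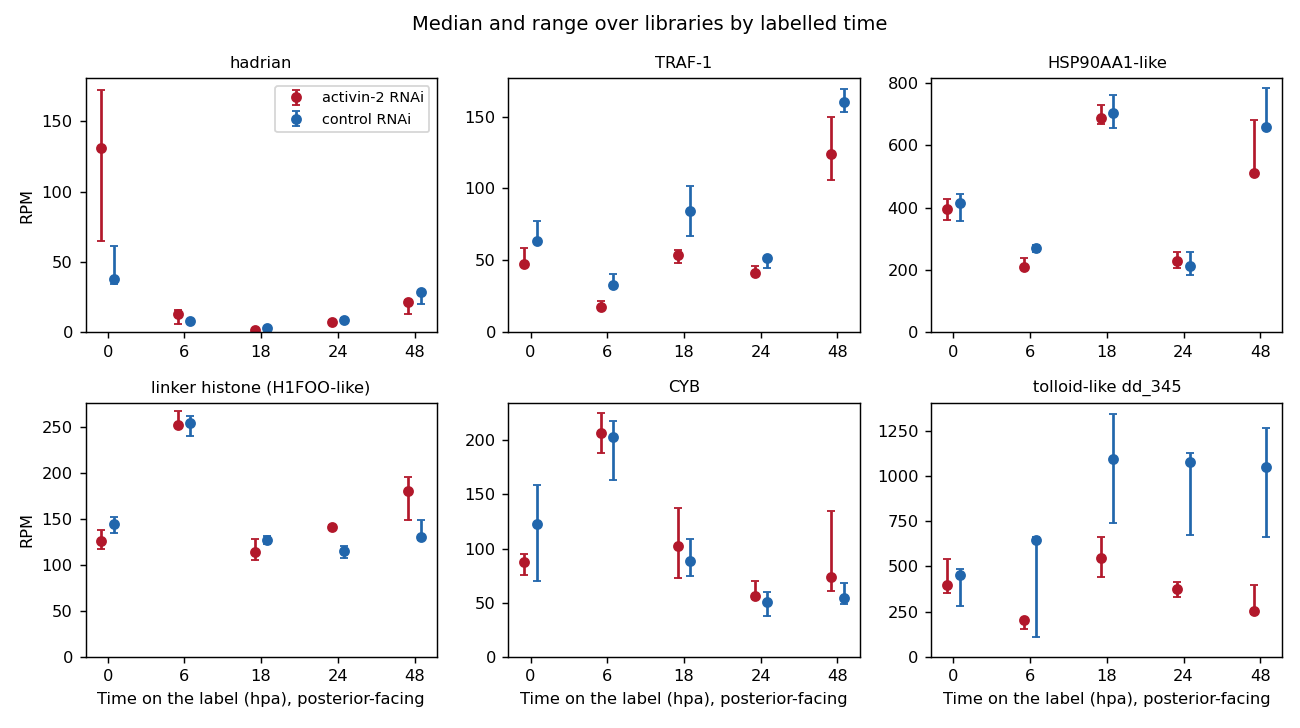
Median RPM with the range over libraries for 6 contigs at wounds labelled 0, 6, 18, 24 and 48 hpa (posterior-facing, 3 or 4 libraries each), for *activin-2* RNAi and control RNAi. The linker histone and *CYB* are highest in labelled 6, HSP90AA1-like is low in labelled 6 and 24, and *hadrian* is highest in labelled 0, in both arms.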

How the data were processed

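The deposited file holds raw read counts per contig that the authors made by mapping reads to the dd_Smed_v6 transcriptome with bowtie (version 1.2 per the labels), counting them per isotig with coverageBed and summing them to 28742 contigs, without normalization. RPM is a count divided by the library's total, times 1000000. The deposited table of comparisons holds the authors' log2 fold changes and adjusted p-values from DESeq, which were not used, and its human and planarian matches, domains and cell cluster annotation named the contigs (human symbols were read for 11469). No genome or sequence was used here.

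Each comparison was a fit of the counts by edgeR 4.0.16 under R 4.3.3 (TMM, filterByExpr with a minimum count of 10 and total of 15, quasi-likelihood test) on the groups compared, and SE is the log2 fold change divided by the square root of F. Named contigs are the target, genes the study names, the 12 largest annotated and 3 largest unannotated called changes in each direction with a mean of at least 1 CPM and no overlap, and up to 2 called members of each list in each direction. Further called members of the 9 lists and of the chaperone and wound-induced lists, the mitochondrial contigs, contigs on the orientation sets and those of the interaction were named after their values were seen. The libraries and 28 lists were chosen with earlier results of these data known, and 9 lists and the orientation sets were added after values were seen. The alternatives were DESeq2 1.42.0, RLE, library size only, no filter, all 12 groups in 1 fit, a replicate block, other limits, and each library left out. The code was tested on simulated data. The counts of 1 of the added lists are not reported here.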

Additional observations from a re-analysis of the deposited data

How the results depend on the processing

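Of the calls in *activin-2* RNAi (61 higher, 120 lower), DESeq2 gave 116 and 244, all 12 groups in 1 fit 215 and 229, a limit of 0.01 gave 3 and 16, and a log2 fold change of at least 1 in size 8 and 65, while no filter on low counts gave 221 lower and 80 higher. RLE and library size only stayed within 1.5 times. The cause of these shifts was not tested. With 1 library left out, rises were 6 to 286 and falls 25 to 906. Of the 61 and 120, DESeq2 kept 58 and 118 and the fit of all 12 groups kept 58 and 84.

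In control RNAi (43 and 94), DESeq2 gave 160 and 191, all 12 groups 221 and 226, no filter 135 and 222, and leaving out 1 library 5 to 29 and 32 to 96. The interaction gave 0 calls in edgeR, 1 in DESeq2, and 0 to 6 with 1 library left out. Without single libraries the log2 fold change of *notum* was -0.09 to 0.26, of *wntless* -0.07 to 0.25 and of *COI* -0.13 to 0.17, none of them called.

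Same-numbered libraries did not deviate together (correlations 0.108, -0.0834 and -0.0155), so the numbers were not taken as pairs. A replicate block gave 21 higher and 74 lower in *activin-2* RNAi and 28 and 69 in control RNAi. With 3 libraries a group, counts of calls depend on single libraries, and small changes of genes at a few RPM were not detectable at this depth.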
